A study of Mus musculus with 16 samples.

Results

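The genes of mouse chromosome 6 were compared between 2 clones of one cell line, clone 4 and clone 8. The members are the rows of the deposited count table that the GENCODE M21 annotation places on this chromosome and that hold at least 320 counts summed over the 16 libraries, with Nanog, Ccnd2, Dppa3 and Tet3 left out. There were 467 such genes among 3109 rows on the chromosome and 52636 rows in all. Their summed counts ran from 322 to 68265, with a median of 2144, and 447 of them (95.7%) were protein-coding. Just inside the count minimum lay Nfe2l3 with 322 counts and Etfbkmt with 325, and just outside it lay Rnf103 with 319 and Gt(ROSA)26Sor with 317. The genes were chosen by their chromosome and summed counts, and the chromosome by its measured clone levels, so the level of clone 8 against clone 4 is given as a description without a test. The change of the members over the time course, which the choice did not use, was tested.

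The cells, called RSC in the labels, were derived from mouse embryonic stem cells that carry a c-RAF kinase construct activated by 4-hydroxytamoxifen (4OHT). All cells, controls included, carried the construct and spent 48 h in 250 nM of the FGF receptor inhibitor PD17, which replaced the MEK inhibitor PD03 of the routine medium with IWP2 and LIF. Cells of the 0h condition were not induced. Those of the 2h condition had received 250 nM 4OHT for 2 h and those of the 4h condition for 4 h, and cells of the rev condition had 4 h of 4OHT and then a further 2 h with a MEK inhibitor. Each condition held 2 libraries of clone 4 and 2 of clone 8, numbered 1 and 2 within a clone. The labels do not say whether the 2 libraries of a clone came from separate cultures, so p-values measure only the spread between these libraries, and each clone stands for 1 clonal line. They do not say where in the genome the construct sits or what dose of MEK inhibitor was used at rev.

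Cultured pluripotent cells can gain or lose whole chromosomes or chromosome arms, and a clone passes such a change on to all its cells. The RNA of many genes in such a stretch tends to shift together by a modest factor. Mouse chromosome 6 carries the kinase gene Braf, the glycolytic genes Gapdh and Tpi1, the imprinted genes Peg10 and Mest, and the Rosa26 locus that is often used for transgenes. DNA copy number was not analysed here, and from RNA alone a higher level in clone 8 cannot be told apart from a lower level in clone 4.

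The 250 bases upstream of the annotated start are shown for 3 members on which the results turn: Edem1, the first gene of the raised stretch described below, Cdkn1b, whose clone difference lay among the largest there, and Trh, which had the largest rise after induction among the members named by rule. The sequences are RefSeq's for the build GRCm38.p6 and run 5′ to 3′ on the strand of the gene. They lie at chr6:108828391-108828640 (plus strand), chr6:134920151-134920400 (plus strand) and chr6:92244651-92244900 (minus strand). Capitals mark matches on either strand to CCAAT, to the CRE-like octamer TGACCTCA and to the CRE palindrome TGACGTCA, letters that were chosen after the sequences had been read.
Edem1: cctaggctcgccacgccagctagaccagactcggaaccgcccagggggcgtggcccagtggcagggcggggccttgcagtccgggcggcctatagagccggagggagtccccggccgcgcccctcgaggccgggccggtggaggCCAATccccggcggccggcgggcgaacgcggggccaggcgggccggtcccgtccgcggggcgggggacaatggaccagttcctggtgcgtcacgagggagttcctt
Cdkn1b: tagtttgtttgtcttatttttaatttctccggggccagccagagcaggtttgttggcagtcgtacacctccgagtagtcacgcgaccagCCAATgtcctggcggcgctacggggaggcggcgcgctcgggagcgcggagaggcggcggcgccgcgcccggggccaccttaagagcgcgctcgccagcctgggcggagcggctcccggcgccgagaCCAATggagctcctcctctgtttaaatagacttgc
Trh: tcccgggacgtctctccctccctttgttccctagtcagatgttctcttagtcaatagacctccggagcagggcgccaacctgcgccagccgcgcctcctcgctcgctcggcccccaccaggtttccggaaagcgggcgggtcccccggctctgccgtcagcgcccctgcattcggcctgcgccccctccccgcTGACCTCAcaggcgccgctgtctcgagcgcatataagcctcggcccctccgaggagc
Edem1 held 1 CCAAT match and Cdkn1b held 2, and such a match occurred in 34.5% of 27025 upstream windows of the same length. Trh held the CRE-like octamer, which occurred in 1.87% of all windows. The CRE palindrome was found in none of the 3 windows and in 1.62% of all windows. Of the members, 242 before the raised stretch and 138 within it had a window in the RefSeq table, with a median GC content of 60% and 59%.

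Library totals ran from 4.31 M to 10.4 M counts. A set of 9 features above 1% of all counts held 47.1% to 79.7% of a library, the latter in library 1 of clone 8 at rev, and 1.25 M to 5.41 M counts lay outside them. Pluripotency markers were present (8 of 8 with a mean of at least 1 CPM, a count scaled to a common library size, summing to 986 to 1237 CPM in clone 4 and 1112 to 1327 CPM in clone 8), and fibroblast markers were low (0 of 4, summing to at most 3.47 CPM, with Twist2 at 0 in all libraries). Endoderm markers summed to at most 4.31 CPM, mesoderm markers to at most 8.13 CPM and neural markers to at most 22.8 CPM. In a principal component analysis of 500 genes with the highest variance, component 1 (51% of the variance) gave clone 4 libraries scores from -30.1 to -3.03 and clone 8 libraries scores from 12.4 to 21.8. On component 3 (8.57%) the 0h and 4h libraries scored from 3.56 to 11 and the 2h and rev libraries from -12.1 to -3.27. The labels name no batch. Setting 2h against 0h, or rev against 4h, crosses this split, and its part in those results was not tested.

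Clone 8 held more RNA of chromosome 6 than clone 4 in every condition. For each library the level of an autosome was taken as the median, over its genes, of log2 CPM (TMM-scaled) relative to the mean of each gene over the 16 libraries, minus the same median over the other autosomes. On this scale chromosome 6 lay between 0.09 and 0.13 in the 8 clone 8 libraries and between -0.12 and -0.07 in the 8 clone 4 libraries, so the clones did not overlap. The difference, clone 8 minus clone 4, was 0.24 at 0h, 0.21 at 2h, 0.20 at 4h and 0.21 at rev, beside a pooled SD of 0.016 between the 2 libraries of a clone and condition. These are ratios of 1.18, 1.15, 1.15 and 1.16. The other 18 autosomes, with 9475 genes at the same count minimum, ranged from -0.05 to 0.07 at 0h, from -0.05 to 0.08 at 2h, from -0.08 to 0.08 at 4h and from -0.10 to 0.11 at rev. Chromosome 19 was the highest of them in each condition. Its libraries were also separate by clone, at most -0.013 in clone 4 and at least 0.011 in clone 8. In bulk RNA, fewer cells with a level and less RNA per cell cannot be told apart.

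**Figure D1:**
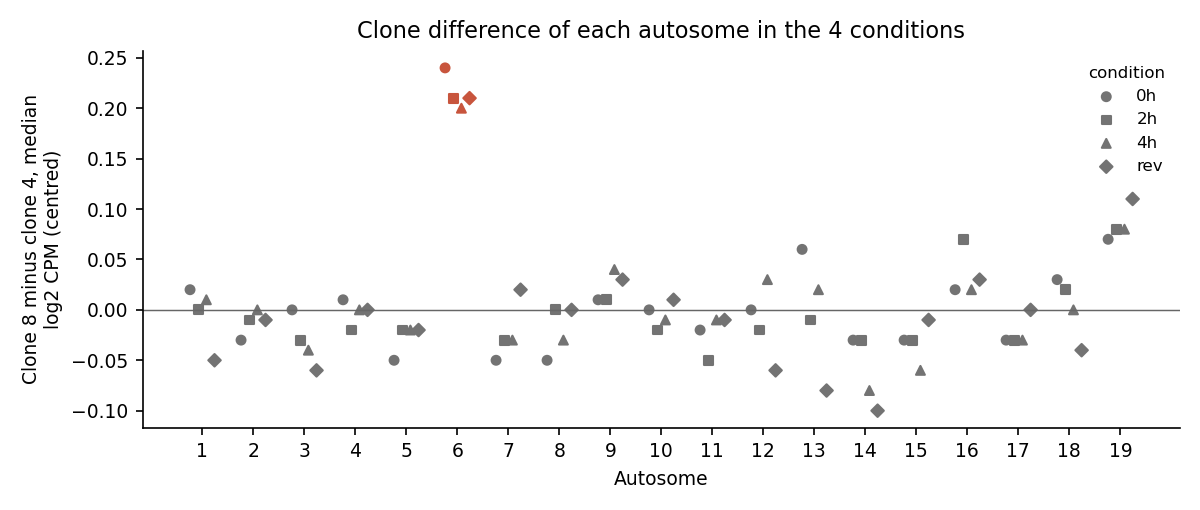
Each symbol is 1 autosome (horizontal axis) in 1 condition, and the vertical axis is the clone 8 minus clone 4 difference of its median log2 CPM level, centred on the other autosomes. Chromosome 6, in red, lies between 0.20 and 0.24, and the other 18 autosomes lie between -0.10 and 0.11.

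The difference was not spread evenly over the chromosome. Ordered by position, the members fell into a stretch of 285 genes whose median clone difference was 0.04 and a distal stretch of 182 genes whose median was 0.52, a ratio of 1.44. The border was placed, after the data had been seen, at the cut that left the least summed absolute deviation from the medians of both sides, with at least 20 genes on each side. It fell between Arl8b (108783099 to 108825278), a GTPase gene of lysosome positioning, and Edem1 (108828641 to 108859356), a gene of the disposal of misfolded glycoproteins in the endoplasmic reticulum, both on the plus strand. All positions are GRCm38, 1-based, from GENCODE M21. The same border was found with 2h, 4h or rev alone, and with 0h alone it fell 3 members earlier, between Sumf1 and Itpr1. Since the next member after Edem1 is Rad18, at 112619850 to 112696686, the border rests on Edem1 alone over almost 4 Mb.

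**Figure D2:**
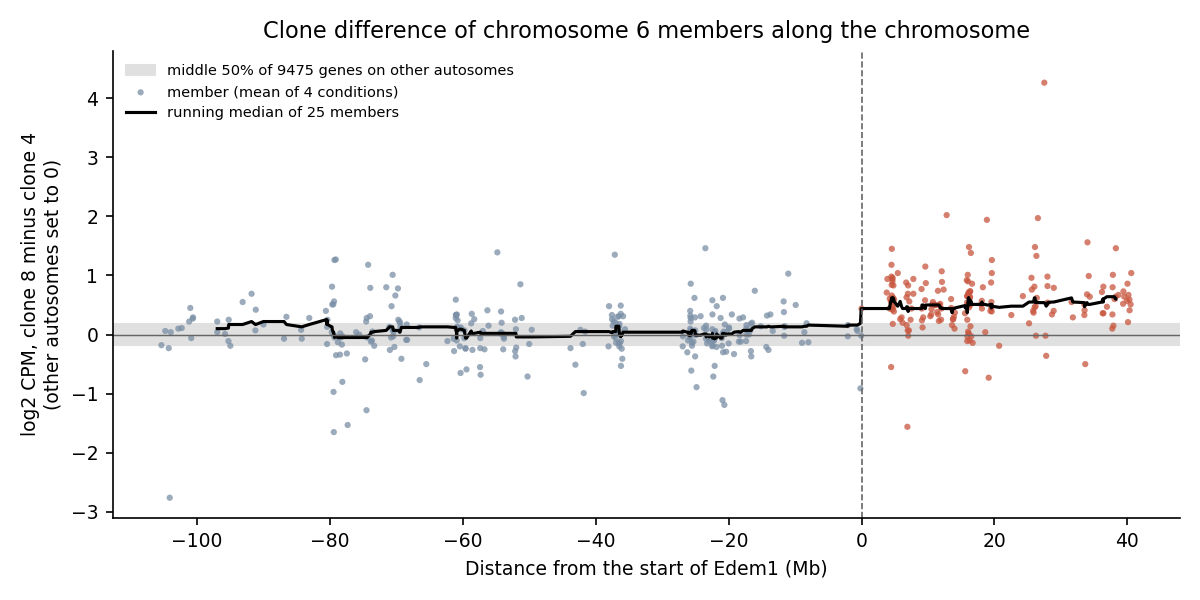
The horizontal axis is the distance of each member from the start of Edem1 in Mb, and the vertical axis is its clone 8 minus clone 4 difference in log2 CPM, as the mean of the 4 conditions with the other autosomes at 0. Points are members, the black line is the running median of 25 members and the grey band holds the middle 50% of 9475 genes on other autosomes. The line stays near 0 to the left of the dashed line and near 0.5 to the right of it.

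Arl8b, Edem1 and Rad18 were singled out after their values had been seen, for their place at the border. Arl8b measured 25.8 and 26.5 CPM in clone 4 and 27.8 and 33.6 CPM in clone 8 at 0h. At rev its values were 35.7 and 40 CPM in clone 4 and 35.4 and 32.7 CPM in clone 8, so clone 8 was the higher at 0h and the lower at rev. Edem1 measured 25 and 27.1 CPM in clone 4 and 33.6 and 32.5 CPM in clone 8 at 0h. At 4h it measured 20.9 and 24.1 CPM in clone 4 and 37.5 and 32.2 CPM in clone 8, and the clones did not overlap in any of the 4 conditions. Rad18, a ubiquitin ligase of DNA damage tolerance, measured 23.2 and 20.2 CPM in clone 4 and 36.5 and 33.2 CPM in clone 8 at 0h. Its clone differences of 0.69, 0.78, 0.67 and 0.70 on the log2 scale at 0h, 2h, 4h and rev varied by little between conditions. Bhlhe40, a transcription factor gene just before Arl8b, had 0.91 at 0h and -1.02, -1.89 and -1.65 in the 3 other conditions.

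Within the distal stretch all 4 bins of 10 Mb were raised. As means of the 4 conditions the median clone difference was 0.55 from 110 to 120 Mb (57 members), 0.50 from 120 to 130 Mb (65 members), 0.58 from 130 to 140 Mb (24 members) and 0.59 from 140 to 150 Mb (35 members). Within a condition they differed more: in this order 0.53, 0.51, 0.45 and 0.65 at 0h, 0.43, 0.46, 0.69 and 0.75 at 2h, 0.65, 0.42, 0.37 and 0.53 at 4h, and 0.57, 0.63, 0.66 and 0.45 at rev. Between 87.5% and 97.1% of the members of these bins were above 0. The 11 bins before them had medians from -0.20 to 0.17, and both ends of that range come from bins with fewer than 20 members (6 from 60 to 70 Mb and 11 from 10 to 20 Mb). Of 170 such bins with at least 20 genes on the other autosomes, 90% lay between -0.09 and 0.12. The lowest, -0.51, and the highest, 0.82, were both on chromosome 3, in the bins from 120 Mb (29 genes) and from 140 Mb (20 genes), and both were at least 0.3 from 0 with one sign in all 4 conditions.

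The split appeared in every condition. The distal median was 0.53 at 0h, 0.56 at 2h, 0.48 at 4h and 0.59 at rev, and the median before the border was 0.05, 0.05, 0.02 and 0.02. The central 50% of the distal members ran from 0.33 to 0.76 at 0h and from 0.19 to 0.90 at rev. This is a spread over genes, and it does not measure how the medians vary between libraries. With the border placed from the 0h libraries alone, the distal medians were 0.53, 0.56, 0.48 and 0.59. That border set apart 185 members in place of 182, nearly the same genes in the same libraries, so these medians are no independent check.

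**Figure D3:**
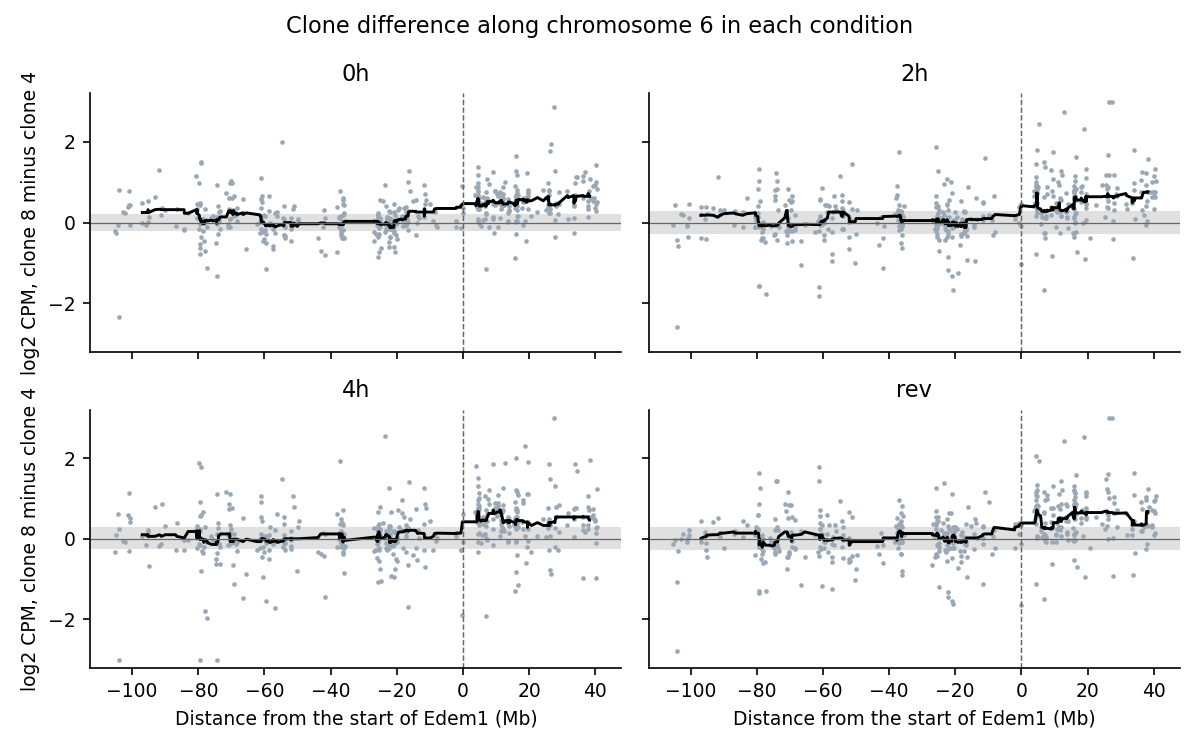
Each panel shows 1 condition, with the distance of each member from the start of Edem1 in Mb on the horizontal axis and the clone 8 minus clone 4 difference in log2 CPM on the vertical axis. Grey points are members (values beyond 3 are drawn at 3), the black line is the running median of 25 members, and the band holds the middle 50% of genes on other autosomes. In all 4 panels the line lies higher to the right of the dashed line, where the medians are 0.53, 0.56, 0.48 and 0.59.

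Library by library, the distal level lay between 0.24 and 0.30 in the 8 clone 8 libraries (mean 0.27, SD 0.016) and between -0.32 and -0.22 in the 8 clone 4 libraries (mean -0.26, SD 0.037). The difference was 0.51 at 0h, 0.57 at 2h, 0.50 at 4h and 0.56 at rev, with a pooled SD of 0.015 between libraries of a clone and condition. Before the border the levels of clone 8 ran from -0.03 to 0.05 and those of clone 4 from -0.04 to 0.03, so the clones overlapped, and the differences were 0.02, 0.02, 0.02 and -0.01. The scale is relative to the mean of all libraries, so the signs do not show which clone departs from the usual level. As a share of the counts of these autosomal genes, the distal members held 1.84% to 2.02% in clone 4 and 2.67% to 2.87% in clone 8, and the members before the border held 2.54% to 2.70% in both. Without library 1 of clone 8 at rev, which had the largest share of its counts in a few features, the distal difference at rev was 0.55.

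**Figure D4:**
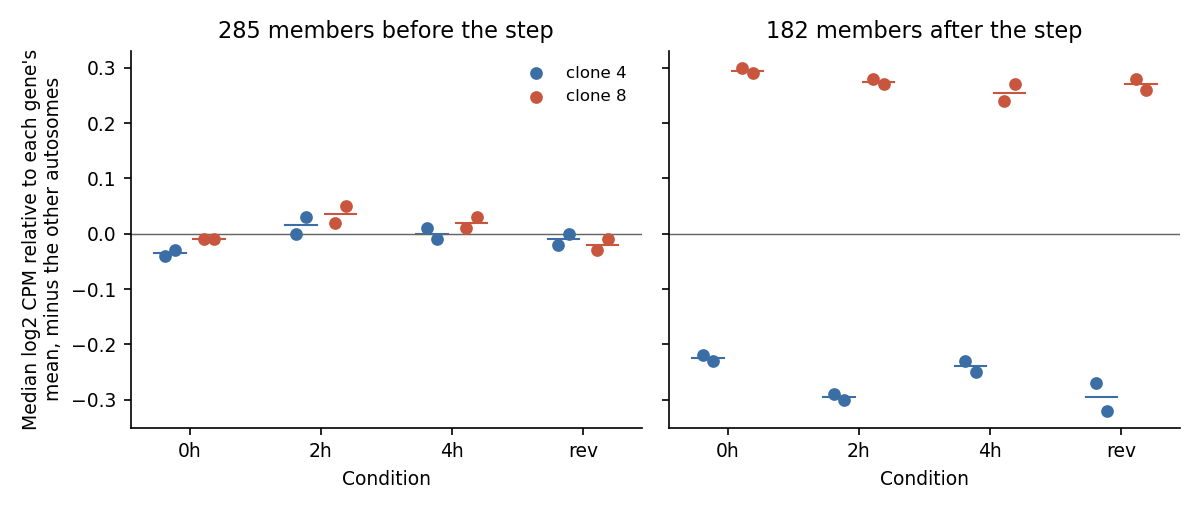
Each point is 1 library, with the condition on the horizontal axis and the median log2 CPM level of the members, relative to the mean of each gene and to the other autosomes, on the vertical axis; lines are means of 2 libraries. The clones overlap before the border and are separate after it, with clone 8 at 0.24 to 0.30 and clone 4 at -0.32 to -0.22.

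The excess was carried by most distal genes and not by a few. Of the 182 distal members, 167 (91.8%) had a mean clone difference above 0, against 55.8% of the 285 members before the border and 49.8% of genes on other autosomes. Both clone 8 libraries lay above both clone 4 libraries at 0h in 249 of 467 members (53.3%), against 26.5% of genes on the other autosomes; of these, 148 were distal (81.3% of the distal members). At 2h it was 239 members, 138 of them distal, against a background of 30.9%. At 4h it was 235 members, 144 distal, against 31.7%, and at rev 217 members, 131 distal, against 29.3%. In all 4 conditions at once the clones were separate in this direction in 124 members, of which 100 were distal (54.9% of the distal members), against 7.17% of genes on other autosomes. In 20 members clone 8 was the lower, with separate libraries, in all 4 conditions, 18 before the border and 2 distal, against 6.53% of genes on other autosomes. Scaled by library totals without TMM, 83.7% of the members were separate with clone 8 higher at 2h, against 75.2% of genes on other autosomes, and 11.8% at rev, against 4.06%. These shares use the contrast that led to the choice of the chromosome and are given as a description. The border was placed on the same clone differences, so the higher shares on its distal side are partly fixed by the cut.

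Small shifts of the distal level went with expression, strand and shared exon bases. Of these the choice used only expression, through the count minimum. The distal median was 0.47, 0.57 and 0.54 in 3 classes of rising expression with 60 or 61 genes each, 0.55 on the plus and 0.51 on the minus strand. It was 0.50 for the 101 distal members that share no exon bases with another gene and 0.56 for the 81 that do. The table does not state whether reads were counted by strand, so for 21 members that share over 20% of their exon length the counts are uncertain.

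Steps of like size relative to the spread were rare on the other autosomes. The border on chromosome 6 removed 19.5% of the summed absolute deviation of its genes, and the best cut removed 14.8% on chromosome 3, 13.8% on chromosome 14 and at most 2.07% on the 16 others. On chromosome 3 it set apart 39 genes from Rap1gds1 (start 138925902) to the end, with a median of 0.84, and on chromosome 14 it set apart 22 genes from Mir17hg (start 115042879) to the end, with a median of -0.97. Both stretches kept their sign in all 4 conditions (0.74 to 0.96 and -1.13 to -0.70), and the distal stretch of chromosome 6 held more genes than the pair together.

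The genes around the Rosa26 locus lay in the distal stretch, 4 Mb after the border. All 8 listed neighbours that were members (Rad18, Srgap3, Thumpd3, Setd5, Mtmr14, Brpf1, Ogg1 and Camk1) were higher in clone 8 in each of the 4 conditions, with a median of 0.66 and a range of 0.44 to 1.18. Cpne9, a copine gene between Mtmr14 and Brpf1 that the list does not hold (343 counts), went the other way, with 0.03 at 0h and -0.77, -0.32 and -1.12 in the other conditions. Setd5, a chromatin regulator gene that starts next to the locus (113077365 to 113153435, plus strand), measured 154 and 151 CPM in clone 4 and 250 and 233 CPM in clone 8 at 0h. Thumpd3, an RNA methyltransferase gene on its other side, measured 24.8 and 24.4 CPM in clone 4 and 32.1 and 31.6 CPM in clone 8. The RNA of the locus itself, Gt(ROSA)26Sor (113067428 to 113077333, minus strand), fell 3 counts short of the minimum and ran from 1.2 to 2.9 CPM in clone 4 and from 0.606 to 3.58 CPM in clone 8, so the clones overlapped.

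The glycolytic genes Gapdh and Tpi1 were higher in clone 8 by more than the median of the stretch. Gapdh, a glycolytic enzyme gene often used to normalise RNA measurements (125161715 to 125166467, minus strand), measured 346 and 297 CPM in clone 4 and 560 and 556 CPM in clone 8 at 0h. At 2h it measured 352 and 316 CPM in clone 4 and 502 and 499 CPM in clone 8, at 4h 318 and 347 against 497 and 606 CPM, and at rev 327 and 284 against 538 and 498 CPM. The clones were separate in each condition, with differences of 0.81, 0.61, 0.71 and 0.78 on the log2 scale. Tpi1, which encodes triose phosphate isomerase, had differences of 1.29, 0.62, 1.20 and 0.95. The list of glucose metabolism also holds genes with other roles, so it is given by its members. In the stretch these were Gapdh, Tpi1, Tigar, the glucose transporter gene Slc2a3 (0.30), Eno2 (-0.03) and Ldhb (-0.50) of glycolysis, the deubiquitinase gene Usp5 (0.50), the proton pump gene Atp6v1e1 (0.25) and the respiratory chain gene Ndufa9 (0.51). Of these 9, 7 were higher in clone 8 in all 4 conditions, all but Eno2 and Ldhb. The 5 before the border, with Hk2 and Akr1b3 among them, had a median of -0.05.

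The translation and ribosome list held 6 distal genes, the ribosomal genes Rpl32 (0.69), Mrpl51 and Rps4l, the ribosome assembly genes Nop2 (0.62) and Emg1 (0.54), and the vesicle coat gene Sec13 (0.59). All 6 were higher in clone 8 with separate libraries in all 4 conditions (median 0.60, range 0.50 to 0.69). Its 9 genes before the border, which include the vesicle transport genes Copg1 and Gcc1, had a median of 0.01. Of the 13 distal genes on the cell cycle and DNA repair list, which also holds the HSP90 co-chaperone gene Fkbp4 (1.04) and Mlf2 (0.71), 12 were higher in all 4 conditions (median 0.71), from 0.04 for Parp11 to 1.48 for Cdkn1b. Its 6 genes before the border, among them Mcm2 (0.12), the endoplasmic reticulum gene Reep1 (1.35) and the nuclear pore gene Nup210 (0.29), had a median of 0.21. Among pluripotency and chromatin genes the median was 0.37 over 14 distal members, of which 9 were higher in all 4 conditions, and -0.13 over 14 before the border. Chd4, a nucleosome remodelling gene, had -0.10 and Atf7ip, of heterochromatin silencing, had -0.02, although both are distal and abundant.

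The RAS-RAF-ERK genes showed a smaller difference than most distal lists. The 11 distal ones had a median of 0.36, and 4 of them were higher in clone 8 in all 4 conditions. The 5 before the border had a median of -0.05, from -0.41 for the kinase gene Braf to 1.03 for Mitf. Of these, 2 were higher in clone 8 in all 4 conditions. Braf had 0.16 at 0h and -0.46, -1.12 and -0.21 at 2h, 4h and rev. Emp1, a membrane protein gene of this list outside the rule for named genes, ranged from 3.64 at 2h to -0.87 at 4h.

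The largest single differences stood apart from the general level of the stretch. A2m, which encodes a secreted protease inhibitor (121635376 to 121679227, plus strand), measured 11.2 and 11.1 CPM in clone 4 and 19.9 and 25.6 CPM in clone 8 at 0h, and 5.32 and 5.67 against 36.8 and 38 CPM at 2h. Its mean difference was 2.02. Prmt8, an arginine methyltransferase gene, followed with 1.94, St8sia1, a ganglioside sialyltransferase gene, with 1.56, and Klhl42, an adaptor gene of a ubiquitin ligase, with 1.46. Cdkn1b, the gene of the cell cycle inhibitor p27 (134920401 to 134925513, plus strand), measured 34.6 and 30.8 CPM in clone 4 and 57.8 and 55.3 CPM in clone 8 at 0h. At 4h it measured 11.5 and 11.2 CPM in clone 4 and 42.7 and 41 CPM in clone 8. The clones were separate in all conditions, and the difference was 0.80 at 0h and between 1.60 and 1.85 in the other conditions. Of the 6 genes with the largest excess, 1, the recycling endosome gene Rab11fip5 (1.46), lies before the border. The predicted gene Gm8994, which the rule for named genes leaves out, had the largest excess of any member, 4.26.

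All 6 named genes with the largest deficit in clone 8 lie before the border. The imprinted gene Peg10, a retrotransposon-derived gene expressed from the paternal copy (4747306 to 4760517, plus strand), measured 90.7 and 103 CPM in clone 4 and 17.7 and 20 CPM in clone 8 at 0h. At 4h it measured 290 and 214 CPM in clone 4 and 24.6 and 25.9 CPM in clone 8, and its difference lay between -3.31 and -2.33 in the 4 conditions. Mest, the other paternally expressed gene among them, had a mean difference of -0.80 and shares 23.1% of its exon length with another gene. The others were Flnc, an actin crosslinker gene (-1.65), Podxl, a sialomucin gene (-1.53), Hmces, a gene of abasic site repair (-1.11), and Dysf, a gene of membrane repair (-0.89). The 6 imprinted genes of the list had a median of -0.20, and Copg2 and Ppp1r9a, which neighbour Mest and Peg10, went both ways. Copg2 had 0.34, -0.16, 0.30 and -0.59 at 0h, 2h, 4h and rev, and Ppp1r9a had 0.81, -0.57, 0.24 and -0.31. Of the HOXA cluster list only Skap2 was a member (0.06). The distal exceptions were Tmem40 and Tspan9, both membrane protein genes, with mean differences of -1.56 and -0.73 and separate libraries in all 4 conditions; they were singled out after their values had been seen.

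**Figure D5:**
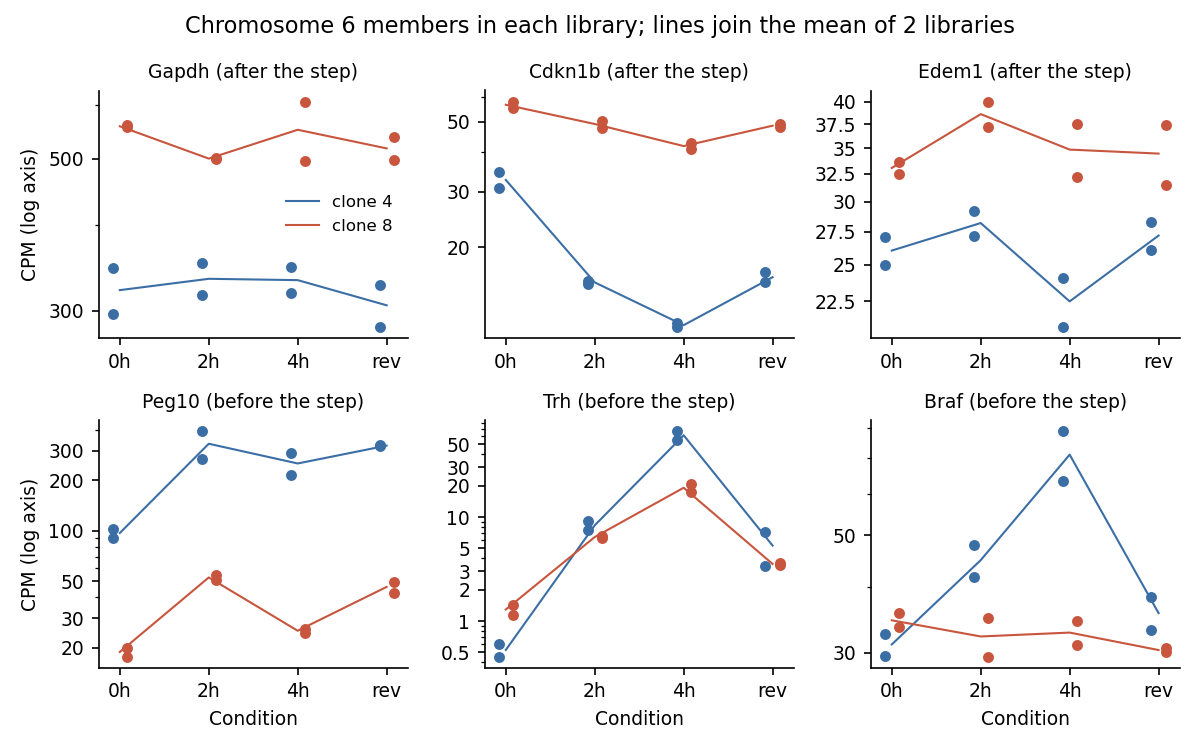
Each panel shows 1 member, with the condition on the horizontal axis and CPM on a logarithmic vertical axis; points are libraries and lines join the means of 2 libraries of a clone. Gapdh, Cdkn1b and Edem1, which lie after the border, are higher in clone 8 in every condition, Peg10 is lower in clone 8, and Trh and Braf change over time by different amounts in the clones.

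The question of the time course was which genes change after ERK induction and which change again after a MEK inhibitor is added. All groups carried the construct, so at 2h and 4h an effect of 4OHT itself cannot be told apart from ERK induction. No group had the further 2 h without the inhibitor, so at rev against 4h the inhibitor cannot be told apart from added time. Shares of the members near the background changed. Of 467 members, all of which passed the filter of the tests, 49 rose and 31 fell at 2h against 0h (edgeR's quasi-likelihood test, adjusted p under 0.05). The background among the 12742 genes tested was 9.49% higher and 7.48% lower, and the members' shares were 10.5% and 6.64%. At 4h against 0h, 38 rose and 28 fell, against a background of 7.35% and 5.56%. At rev against 4h, 26 were higher and 33 lower, against a background of 4.5% and 5.1%; the members' shares were 5.57% and 7.07%. Among the 9475 genes of other autosomes with the same count minimum the shares at rev were 4.85% and 5.66%, in all 10.5% called against 12.6% of the members. The median change of the members was 0.02, 0.00 and 0.00 on the log2 scale in the 3 comparisons, as small as that of all genes tested. At 2h, 36 members before the border rose (12.6%) and 12 fell (4.21%), and 13 distal members rose (7.14%) and 19 fell (10.4%). Either way, 16.8% were called before the border and 17.6% of the distal members, against 17% of all genes tested. Leaving out library 1 of clone 4 at 0h brought the counts at 2h and 4h from 80 and 66 to 38 and 39, and leaving out library 2 of clone 4 at 4h brought that at rev from 59 to 28. With library totals in place of TMM factors 13, 26 and 27 members were called, at rev 5 higher and 22 lower, and a fit without the clone term called 16, 15 and 8.

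By list, the counts are set beside the share of all genes called, which was 17% at 2h, 12.9% at 4h and 9.61% at rev, and each list is small. Of the 16 RAS-RAF-ERK genes, 3 rose and 2 fell at 2h (31.2%), 2 rose and 1 fell at 4h, and 2 were higher and 1 lower at rev. Of the 28 pluripotency and chromatin genes, 4 rose and 1 fell at 2h (17.9%), 1 rose and 1 fell at 4h, and 2 were higher and 3 lower at rev. On the cell cycle and DNA repair list of 19 genes, 1 rose and 3 fell at 2h (21.1%), 1 rose and 2 fell at 4h, and 1 was higher and 1 lower at rev. On the glucose metabolism list of 14 genes, 2 fell at 2h (14.3%), 1 rose and 2 fell at 4h, and 1 was higher and 1 lower at rev. Of the 6 imprinted genes, 1 rose at 2h (16.7%), 2 rose at 4h (33.3%), and 1 was higher and 1 lower at rev. On the translation and ribosome list of 15 genes, 0 were called at 2h, 2 rose at 4h (13.3%) and 1 was lower at rev. Of the 8 Rosa26 neighbours, 0 were called at 2h, 1 fell at 4h and 1 was higher at rev, and Skap2 was called in none of the 3 comparisons.

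Trh, the gene of the thyrotropin-releasing hormone precursor (92242061 to 92244650, minus strand), rose most among the members named by rule. At 0h it measured 0.599 and 0.455 CPM in clone 4, worth 3 counts in each library, and 1.14 and 1.44 CPM in clone 8. At 2h it measured 9.21 and 7.46 CPM in clone 4 and 6.61 and 6.24 CPM in clone 8. At 4h it measured 55.6 and 66.8 CPM in clone 4 and 17.5 and 20.8 CPM in clone 8, and at rev 7.23 and 3.4 against 3.63 and 3.45 CPM. All 4 libraries at 4h were above all others. Its log2 change was 2.91 (SE 0.417, edgeR adjusted p 0.000143) at 2h and 5.16 (SE 0.364, edgeR adjusted p 3.24e-08) at 4h against 0h, and it fell by 3.10 at rev against 4h (SE 0.286, edgeR adjusted p 1.47e-06). From summed counts the ratio of 4h to 0h was 115 in clone 4 (exact 95% interval 52.6 to 314, counting error only) and 14.9 in clone 8 (9.56 to 24.4). At rev against 4h the change was -3.55 in clone 4 and -2.35 in clone 8 (edgeR interaction test, adjusted p 0.041).

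Mkrn1, a ubiquitin ligase gene, rose at 4h and fell at rev, in both by less in clone 8 than in clone 4. It measured 49.9 and 44.9 CPM in clone 4 and 54 and 54.3 CPM in clone 8 at 0h, 171 and 163 against 116 and 98.5 CPM at 4h, and 51.8 and 44.7 against 60.9 and 78.3 CPM at rev. Its log2 change was 1.45 at 4h and -1.25 at rev (edgeR adjusted p 4.87e-05 and 0.00028). At 2h Mkrn1 rose by 0.60 (edgeR adjusted p 0.032). This was 0.34 in clone 4 and 0.80 in clone 8, a difference that was not called (edgeR interaction test, adjusted p 0.0802). At 4h Mkrn1 rose by 1.82 in clone 4 and by 0.98 in clone 8 (edgeR interaction test, adjusted p 0.000883). At rev it changed by -1.79 and -0.63 (edgeR interaction test, adjusted p 2.74e-06), and both clone 8 libraries stayed above those of 0h. Akr1b3, the aldose reductase gene, changed by -0.93 at rev (edgeR adjusted p 0.0031). This was -1.39 in clone 4 and -0.41 in clone 8 (edgeR interaction test, adjusted p 0.0005). Peg10 rose by 1.65 at 2h (edgeR adjusted p 1.61e-06), with 269 and 392 CPM in clone 4 and 50.4 and 54.7 CPM in clone 8, and without the clone covariate the change was 1.74 and the call was lost (edgeR adjusted p 0.297). Zfp800, a zinc finger gene, rose by 1.12 at 2h (edgeR adjusted p 0.00118) and Mest by 1.33 at 4h (edgeR adjusted p 0.000964). The rise of Mest was 1.80 in clone 4 and 0.73 in clone 8 (edgeR interaction test, adjusted p 0.00626).

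Rassf4, a gene of the RAS association domain family, had the largest falls at 2h and 4h among the members named by rule. It measured 16 and 17.6 CPM in clone 4 and 15.4 and 15.2 CPM in clone 8 at 0h, and 2.4 and 5.33 against 7.64 and 9.95 CPM at 4h, where both clones were below all 0h libraries. It fell by 1.00 at 2h and by 1.41 at 4h (edgeR adjusted p 0.00408 and 0.000539). At 2h it changed by -1.40 in clone 4 and -0.57 in clone 8 (edgeR interaction test, adjusted p 0.0473). At 4h the changes were -2.15 and -0.79 (edgeR interaction test, adjusted p 0.00401). Bcl2l14, a BCL2 family gene, fell by 0.80 at 2h and by 0.98 at 4h (edgeR adjusted p 0.0122 and 0.00621), Clstn3, a synaptic adhesion gene, by 0.84 at 2h (edgeR adjusted p 0.0181) and St8sia1 by 1.10 at 4h (edgeR adjusted p 0.000954). Scaling by library totals ended the 2h calls of Bcl2l14 (edgeR adjusted p 0.155) and Clstn3 (edgeR adjusted p 0.142). That of Clstn3 was also lost without library 1 of clone 4 at 0h (edgeR adjusted p 0.0845) or without library 1 or 2 of clone 4 at 2h (edgeR adjusted p 0.0539 and 0.0532). At rev, Rab11fip5 rose by 1.25 (edgeR adjusted p 0.00158). Without the clone covariate the calls of Rassf4 at 2h (edgeR adjusted p 0.0874), Bcl2l14 at 2h and 4h (0.275 and 0.196), Clstn3 (0.119), St8sia1 (0.361) and Rab11fip5 (0.304) were lost, with log2 changes of -0.94, -0.72 and -0.93, -0.91, -0.98 and 1.11, and those of Prmt8 (0.457) and Rasgef1a (0.12), named next, with 1.19 and 1.23. Prmt8 rose by 1.25 and the RAS exchange factor gene Rasgef1a by 1.17 (edgeR adjusted p 0.0321 and 0.044). Rasgef1a rose by 2.74 in clone 4 and by 0.24 in clone 8 (edgeR interaction test, adjusted p 2.74e-06). The call of Prmt8 was lost without library 1 of clone 8 at rev (edgeR adjusted p 0.103), library 2 of clone 8 at rev (0.0631), library 1 or 2 of clone 4 at 4h (0.0805 and 0.0588) or library 1 of clone 8 at 4h (0.0679). The call of Rasgef1a was lost in 9 such omissions: either library of clone 4 at 4h (edgeR adjusted p 0.181 and 0.14) or at rev (0.13 and 0.105), library 1 of clone 8 at rev (0.0616), library 1 of clone 4 at 0h (0.0549) or at 2h (0.0516), and either library of clone 8 at 0h (0.0524 and 0.0558).

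Cdkn1b fell by 0.60 at 2h and by 0.89 at 4h (edgeR adjusted p 0.00949 and 0.000802), and Tpi1 by 0.66 and 0.62 (edgeR adjusted p 0.00503 and 0.00943). At 2h Cdkn1b changed by -1.06 in clone 4 and -0.20 in clone 8 (edgeR interaction test, adjusted p 0.000655). Tpi1 changed by -0.29 in clone 4 and -0.97 in clone 8 at 2h (edgeR interaction test, adjusted p 0.0323). Gapdh changed by -0.05 at 2h and 0.01 at 4h (edgeR adjusted p 0.726 and 0.944), Setd5 by -0.03 and -0.23 and Ezh2, the Polycomb methyltransferase gene, by 0.16 and 0.02, none of them called.

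Whether the clones changed alike was tested with an interaction term, the change in clone 8 less that in clone 4. At 2h against 0h, 54 members were called, 11.6% against a background of 7.94%; at 4h against 0h 40 were called, 8.57% against 5.72%; and at rev against 4h 79 were called, 16.9% against 13.2%. Genes of other autosomes with the same count minimum gave 8.90%, 6.44% and 14.9%. The called genes made up 12.3%, 7.72% and 16.8% of the members before the border and 10.4%, 9.89% and 17% of the distal ones. The median of the distal members was 0.05, 0.00 and 0.02 on the log2 scale. With DESeq2 in place of edgeR the counts were 27, 29 and 52, and leaving out library 1 of clone 4 at 4h brought the 40 at 4h to 17. The called members were more positive in clone 8 in 27 of 54, 13 of 40 and 40 of 79, and under library totals, which moved the median of all genes to 0.56, 0.35 and -0.67, in 29 of 32, 6 of 10 and 4 of 82.

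Several regulated members thus differed in their response. Counts of the oestrogen receptor gene Esr1, on chromosome 10, ran from 10.6 to 23.5 CPM in clone 4 and from 3.31 to 10.6 CPM in clone 8. Whether they hold reads of the construct activated by 4OHT, and whether the clones differ in its level, was not tested. Braf measured 29.6 and 32.6 CPM in clone 4 and 35.6 and 33.5 CPM in clone 8 at 0h, and 78.7 and 63.5 against 31 and 34.5 CPM at 4h. Both clone 4 libraries at 4h lay above all others, while the 0h and 4h libraries of clone 8 overlapped, and the interaction value was -1.29 (edgeR interaction test, adjusted p 8.93e-06). Cdkn1b fell by 1.51 in clone 4 and by 0.43 in clone 8 at 4h, a difference of 1.08 (edgeR interaction test, adjusted p 9.36e-05). Trh rose less in clone 8 at 4h, by 3.66 against 6.31 as means of log2 CPM, and the fitted interaction value was -2.94 (edgeR interaction test, adjusted p 0.0043), with 3 counts in each clone 4 library at 0h, and the adjusted p was 0.0546 without library 2 of clone 4 at 0h. Tead4, a transcription factor gene of the Hippo pathway, measured 12.4 and 12.3 CPM in clone 4 and 30.2 and 28 CPM in clone 8 at 0h, but 50.7 and 41.9 against 38.8 and 42.4 CPM at 4h, where the clones overlapped. Its interaction value at 4h was -1.46 (edgeR interaction test, adjusted p 1.89e-06). By contrast Gapdh, Thumpd3, Setd5 and Rad18 had interaction values between -0.27 and 0.11 in the 3 comparisons, none of them called. Tpi1, also distal, had a called value of -0.69 at 2h (edgeR interaction test, adjusted p 0.0323).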

How the data were processed

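Libraries were made after depletion of ribosomal RNA, per the labels' protocols. The authors' deposited table holds whole-number counts per Ensembl gene, not normalized. The submitters' processing notes name bcl2fastq 2.19.1, STAR 2.5.3a and mm10; the counting program and strand setting are not given in the sources used here. Of 52636 rows, 52403 matched GENCODE M21 by gene ID and 233 did not.

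Genes passing filterByExpr (minimum count 10, minimum total 15) were scaled by TMM and fitted with edgeR 4.0.16 in R 4.3.3 (quasi-likelihood, Benjamini-Hochberg over 12742 genes). The model held condition and clone over 16 libraries, and clone differences came from a model of the 8 combinations; it was tested on simulated data. SE was derived from the log2 change and F. Levels used log2 CPM with a prior count of 2, without the 9 features above 1% of counts.

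Members, lists and tests were chosen with earlier results of these data known; the border, the motifs and some alternatives after seeing the data. Named genes (at least 800 counts) were the 6 largest excesses and deficits of one sign in 4 conditions, the 3 largest rises and falls of one sign in all pairs, the 2 largest clone differences per direction and comparison, and 12 fixed genes, some of which are not reported here. No replicate pair agreed within sampling noise (chi-square 1.3 to 3.24 per df), and none was merged. Alternatives were DESeq2 1.42.0, library totals, other count minimums and prior counts, the replicate block and leaving out each library.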

Additional observations from a re-analysis of the deposited data

Results flagged for a closer look

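Members named for a change over time that differed between the clones, each called by edgeR in a fit of the interaction across all genes, are given with the change in clone 8 less that in clone 4 on the log2 scale. At 2h against 0h the values were 1.87 for Prmt8 (adjusted p 0.00212), 1.75 for A2m (adjusted p 2.24e-05), -1.43 for Ppp1r9a (adjusted p 0.0002) and -1.20 for Tead4 (adjusted p 9.86e-05). Without library 2 of clone 4 at 0h the call of Prmt8 was lost (edgeR adjusted p 0.165). A2m changed in opposite directions, by -1.04 and -0.94 in the clone 4 libraries and by 0.88 and 0.57 in the clone 8 libraries numbered alike, and so did Ppp1r9a, a neurabin gene of the actin cytoskeleton, with 0.59 and 1.30 against -0.70 and -0.19.

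At 4h against 0h they were 2.11 for Prmt8 (edgeR adjusted p 0.0101), 1.96 for Rasgef1a (edgeR adjusted p 0.00152), -2.94 for Trh (edgeR adjusted p 0.0043) and -2.54 for Flnc (edgeR adjusted p 3.74e-05). The call of Prmt8 was lost without library 2 of clone 4 at 0h (edgeR adjusted p 0.193) or library 1 of clone 4 at 4h (edgeR adjusted p 0.38), and that of Trh without library 2 of clone 4 at 0h (edgeR adjusted p 0.0546). Flnc measured 5.79 and 7.58 CPM in clone 4 at 0h and 48.8 and 27.4 CPM at 4h, beside 4.46 and 3.88 and then 4.83 and 3.37 CPM in clone 8. At rev against 4h they were 1.91 for Flnc (edgeR adjusted p 0.000273), 1.60 for Stk31, a germ cell kinase gene (edgeR adjusted p 0.000306), -2.73 for Rasgef1a (edgeR adjusted p 2.74e-06) and -2.08 for Etnk1, an ethanolamine kinase gene (edgeR adjusted p 3.15e-09). Etnk1 measured 93.9 and 72.9 against 196 and 169 CPM at 0h, 139 and 175 against 168 and 161 CPM at 2h, 56.3 and 77.2 against 218 and 208 CPM at 4h, and 138 and 163 against 114 and 117 CPM at rev (clone 4 against clone 8). Its clones were thus separate at 0h, 4h and rev and overlapped at 2h, with clone 8 the lower at rev only. The comparisons at 2h and rev cross the split of the third principal component, and its part in them was not tested.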

How the results depend on the processing

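The clone 8 excess in the chromosome and distal levels kept its sign in every alternative run for them. Library totals were not run for these levels by condition. With them the distal median, as a mean of the 4 conditions centred on the other autosomes, was 0.52. The chromosome level at 0h, 2h, 4h and rev was 0.19, 0.19, 0.18 and 0.20 with a count minimum of 32, 0.24, 0.24, 0.24 and 0.23 with 1000, 0.27, 0.25, 0.24 and 0.22 from summed counts, 0.24, 0.19, 0.22 and 0.20 without centring, and 0.17, 0.19, 0.14 and 0.18 over members that share no exon bases. The distal level was 0.54 in each condition from summed counts, 0.52 at 4h with a count minimum of 1000, and 0.49, 0.56, 0.47 and 0.53 without shared exon bases. Leaving out each library in turn gave chromosome levels of 0.23 to 0.25, 0.18 to 0.23, 0.19 to 0.22 and 0.21 to 0.21, and distal levels of 0.51 to 0.52, 0.57 to 0.57, 0.49 to 0.51 and 0.54 to 0.59. The border stayed at Edem1 with each of 5 other settings. One of these, library totals, could hardly move it, because the differences were centred on the other autosomes. The others used the same libraries, with another prior count or a part of the same genes. With library totals the share of members with separate libraries was 83.7% at 2h and 11.8% at rev, against 51.2% and 46.5%, and that of genes on other autosomes was 75.2% and 4.06%. Leaving out each library gave 58.7% to 63.2%, 55.2% to 60.6%, 55.5% to 59.5% and 53.3% to 58.2% of members and 34.6% to 40.3%, 37.2% to 41.1%, 41.1% to 42.4% and 36.2% to 41.3% of other genes, where 3 libraries in place of 4 had to be separate. The causes of the other shifts were not tested.

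The counts of called members depended on the processing more. For 2h, 4h and rev, an adjusted p under 0.01 left 27, 28 and 22, library totals 13, 26 and 27, and no clone covariate 16, 15 and 8. Leaving out each library gave 38 to 92, 39 to 78 and 28 to 75. The counts fell most without library 1 of clone 4 at 0h (38 and 39 at 2h and 4h) and without libraries 1 and 2 of clone 4 at 4h (40 and 42 at 4h, 32 and 28 at rev) or at rev (34 and 28 at rev); without library 2 of either clone at 2h the count at 2h was 47 in clone 4 and 49 in clone 8. For differences between the clones, an adjusted p under 0.01 left 21, 26 and 40, library totals 32, 10 and 82, and DESeq2 27, 29 and 52. Leaving out each library gave 23 to 67, 17 to 45 and 39 to 84. At 2h, 23 were left without library 2 of clone 4 and 30 and 31 without libraries 1 and 2 of clone 8 at 0h, and 29, 32 and 34 without library 2 of clone 4 and libraries 1 and 2 of clone 8 at 2h. At 4h, 26 were left without library 2 of clone 8 at 0h and 17 without library 1 of clone 4 at 4h. At rev, 39 were left without library 1 of clone 4 at 4h and 45 without library 2 of clone 4 at rev.

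Library totals moved the median of all genes by 0.11 at 2h and -0.20 at rev, and the interaction medians to 0.56, 0.35 and -0.67; the calls were then 18.5% higher at rev, against 44.1%, and 90.6%, 60% and 4.88% more positive in clone 8, against 50%, 32.5% and 50.6%. Without a count filter 33.3% of the rev differences were more positive in clone 8. Libraries with one number did not deviate together (correlations -0.133 to 0.119 over 12 pairs). The replicate block gave 66, 51 and 38 called members, all among those called without it, and 55, 38 and 72 for clone differences, of which 49, 37 and 72 were called without it. Over named members, comparisons and settings, 44 calls were lost, among them the rev rises of Prmt8 and Rasgef1a with the block (edgeR adjusted p 0.0535 and 0.0629). The 702 values that were kept include clone levels of named members and positions of the border, which have no call. They are thus not a count of kept calls.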
